A study of Mus musculus with 6 samples.

Results

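Liver and developmental transcription factor families were examined by RNA-seq in whole livers of 3 mice with floxed Fgf18 (Fgf18 f/f) and 3 mice with Fgf18 deleted in stellate cells (Fgf18△HSC) after hepatic ischemia and reperfusion. The members were chosen by their symbols. They are the listed protein-coding genes named as nuclear receptors (Nr, Rar, Rxr, Ppar), forkhead (Fox), Hox, Krüppel-like (Klf), Sox, GATA, C/EBP, HNF, Onecut, T-box, POU, Tcf, Tead, ETS (Elf, Ets, Etv), Runx, Mef2, Atf or Maf factors. This gave 42 members among 2441 protein-coding genes and 3201 genes in all. Of these, 3 are neither receptors nor DNA-binding transcription factors: the nuclear receptor-associated protein Nr2c2ap, the coactivator Ppargc1b and the corepressor Runx1t1. The other 39 are transcription factors or receptors that carry these names. Among them are Tcf23 and Tcf24, which are basic helix-loop-helix proteins, and Nr0b2, a receptor without a DNA-binding domain. Members of the Hnf, Rxr, Mef2, Elf and Atf families were not analysed here. The 42 were drawn from 260 annotated protein-coding genes that match the names (16.2%), and 11.1% of the 22028 annotated protein-coding genes were listed.

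All 6 livers underwent 1 h of ischemia, made by clamping the portal branches of the left and middle lobes, and then 6 h of reperfusion. In the Fgf18△HSC group, Cre driven by the GFAP promoter deletes the growth factor gene Fgf18 in hepatic stellate cells (HSCs), which store vitamin A. Fgf18 f/f mice carry the floxed alleles without deletion. The paper describes its mice as male and on a C57BL/6 background, while age and sampled lobe are not given in the sources used here. For the Fgf18 f/f livers the deposited label names the injury and no genotype, which was taken from the paper, and Fgf18 itself was not analysed here.

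The comparison asked how livers differed after injury when HSCs could not make FGF18. Values are TPM, in which the reads of a gene are corrected for its length and every library is brought to one total. The depth of the libraries differed, and a single read over 1 kb stood for a value from 0.0374 to 0.0555 TPM in Fgf18 f/f livers and from 0.0482 to 0.0655 TPM in Fgf18△HSC livers, of which replicate 2 was the shallowest library. The log2 fold changes below are Fgf18△HSC over Fgf18 f/f on the log2(TPM + 0.1) scale, on which changes of low genes come out too small. A gene passed the threshold at a limma adjusted p under 0.05 over all 3201 genes together with a log2 fold change beyond 1 or -1. The table lists only genes that had already differed in the authors' own comparison of the same 6 livers. The adjusted p-values are therefore not valid false discovery rates, and they only rank genes within this selection. The share of listed genes that passed was high, at 71.7% in either direction, with 41.6% higher and 30% lower in Fgf18△HSC livers, and 96.3% had groups that did not overlap. Among the listed protein-coding genes these shares were 69.4%, 40.4%, 29.1% and 96.7%.

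Hepatocytes keep their identity through a network of such factors, in which C/EBP, Onecut and nuclear receptor proteins bind the promoters and enhancers of metabolic genes together. Nuclear receptors read small molecules: PPARα responds to fatty acids and drives their oxidation, while bile acids act through FXR, which induces the repressor SHP. Hox, Sox, GATA and T-box factors are best known from development, and in the adult liver many of them mark endothelial, biliary, mesenchymal or blood cells rather than hepatocytes.

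Of the 42 members, 26 had higher and 16 lower mean values in Fgf18△HSC livers. Past the threshold, 12 members rose and 14 fell, so that 61.9% were called against 69.4% of the listed protein-coding genes. The median log2 fold change of the members was 0.78, beside 0.88 over all listed genes. The 2 groups of livers did not overlap in 41 of the 42 members (97.6%), and the exception was Runx2. With a pseudocount of 1, which weighs low values less, 9 members were called: Nr0b2 and Nr2c2ap rose, and 7 fell, among them Ppara, Cebpb, Cebpd, Onecut1, Foxq1 and Ets2. At that pseudocount 26% of all listed genes were called. With livers rescaled to the same median ratio, the log2 fold change of all listed genes shifted by a median of -0.88. Then 6 members rose and 16 fell, and Nr2c2ap, Foxs1, Tcf23, Klf16, Tcf7 and Etv5 were no longer called. Of all listed genes 43.6% were called after this rescaling. The ratio was taken over listed genes only, which were selected on this same contrast and of which 65.1% had higher values. Such a rescaling lowers rises and deepens falls, and it cannot separate a difference in scale from that selection.

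Direction differed with the level of the gene. Among the 18 members with a mean of at least 1 TPM, 13 had lower values and 11 of these fell, while 5 had higher values and 4 of these rose, with a median log2 fold change of -1.06. Among the 24 members below 1 TPM, 21 had higher values (87.5%), and 8 of these rose while 3 members fell. The listed protein-coding genes were divided in the same direction: of the 1128 with a mean of at least 1 TPM, 39.5% were higher, with a median of -1.04, and of the 1313 below it, 89% were higher. The share called in either direction was 83.3% of the members and 91.5% of the listed protein-coding genes at or above 1 TPM, and 45.8% and 50.5% below it.

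**Figure D1:**
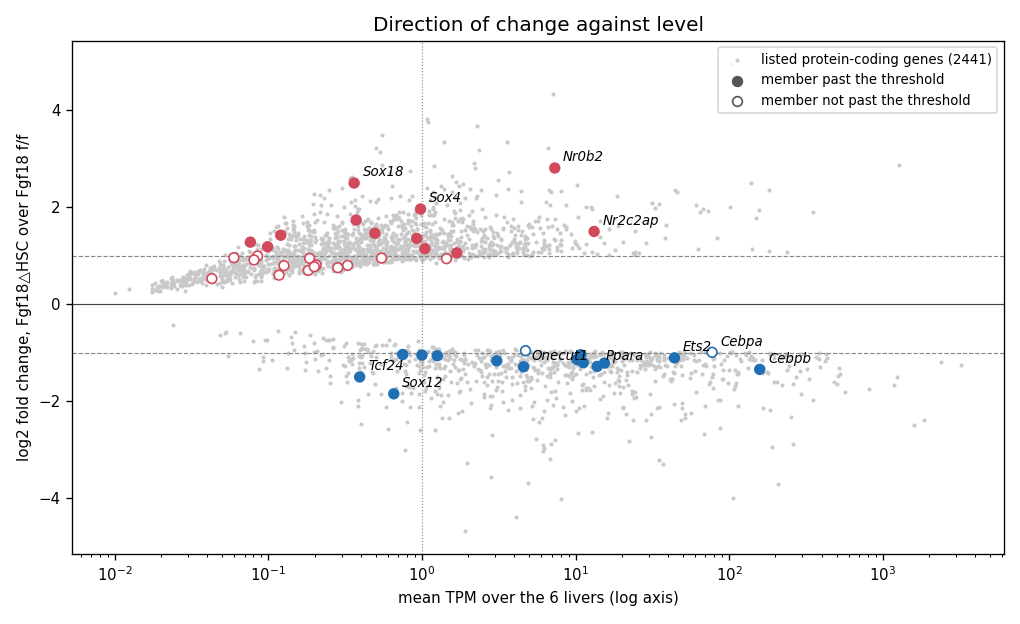
Log2 fold change, Fgf18△HSC over Fgf18 f/f, of each listed protein-coding gene (grey, 2441) and each member (coloured, 42) against the mean TPM over the 6 livers on a log axis. Filled points passed the threshold, dashed lines mark a log2 fold change of 1 and -1, and the dotted line marks 1 TPM, to the right of which 13 of 18 members lie below 0.

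The nuclear receptors moved in opposite directions. Nr0b2 (chromosome 4 of GRCm38, 133553376 to 133556536) encodes SHP, an atypical receptor without a DNA-binding domain that represses bile acid synthesis. It had 1.19, 1.82 and 2.21 TPM in the Fgf18 f/f group, against 16.8, 8.56 and 13.4 TPM in the Fgf18△HSC group. Each Fgf18△HSC liver was above every Fgf18 f/f liver, and the lowest of them was replicate 2. The mean rose from 1.74 ± 0.515 to 12.9 ± 4.13 TPM (SD, n = 3 each), 7.42-fold, with a log2 fold change of 2.81 (± 0.29 SE, adjusted p = 8.27e-05 by limma), which was the largest rise among the members on this scale.

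Ppara (chromosome 15, 85734983 to 85802819) had 20.02, 19.4 and 19.6 TPM in the Fgf18 f/f group, against 8.01, 8.16 and 7.89 TPM in the Fgf18△HSC group. The livers of each group were close to each other and the groups were far apart. Its mean fell from 19.7 ± 0.337 to 8.02 ± 0.132 TPM (SD, n = 3 each), a log2 fold change of -1.28 (± 0.10 SE, adjusted p = 3.05e-05 by limma). Ppargc1b, a coactivator of PPARα and other receptors, fell from 1.37 ± 0.167 to 0.627 ± 0.198 TPM, a log2 fold change of -1.05 (± 0.24 SE, adjusted p = 0.00363 by limma). That call was lost without Fgf18△HSC replicate 2, where the log2 fold change was -0.84, and without Fgf18 f/f replicate 2, where it was -0.99. Rarg, a retinoic acid receptor, had 0.343 ± 0.0906 and 0.748 ± 0.0776 TPM (SD, n = 3 each) and did not pass the threshold at a log2 fold change of 0.95.

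Nr2c2ap, which binds the orphan receptor TR4, was the highest member among those that rose. It had 7.002, 6.98 and 6.55 TPM in the Fgf18 f/f group, against 20.6, 19.95 and 18.1 TPM in the Fgf18△HSC group, a log2 fold change of 1.5 (± 0.11 SE, adjusted p = 2.27e-05 by limma). Rfxank, a gene on the opposite strand that overlaps it, rose from 4.36 ± 0.180 to 13.0 ± 1.11 TPM (SD, n = 3 each), a log2 fold change of 1.55. The setting for strand in the authors' counting was not stated, so reads over any shared exons cannot be told apart with certainty. A listed gene on the other strand also overlaps 4 other members: Cebpb with Tmem189, Cebpa with Gm45091, Foxq1 with A530084C06Rik and Sox4 with Gm26735. Overlap was judged by the bounds of the genes and not by their exons, so it is uncertain whether reads were shared. In each pair both genes had the same direction.

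The C/EBP and Onecut factors had lower values in Fgf18△HSC livers in all 5 members, and 4 of the 5 fell. All had a mean above 1 TPM, where 91.5% of the listed protein-coding genes passed the threshold and 39.5% had higher values. C/EBPα and C/EBPβ are leucine zipper factors that drive hepatocyte genes, with C/EBPβ and C/EBPδ also induced in the acute phase response, and C/EBPε is known from granulocytes. Cebpb (chromosome 2, 167688915 to 167690418), the member with the highest level, had 243, 239 and 199 TPM in the Fgf18 f/f group, against 84.0, 95.1 and 88.2 TPM in the Fgf18△HSC group. The lowest Fgf18 f/f liver was more than 100 TPM above the highest Fgf18△HSC liver. The mean fell from 227 ± 24.7 to 89.1 ± 5.61 TPM (SD, n = 3 each), a log2 fold change of -1.35 (± 0.12 SE, adjusted p = 4.72e-05 by limma).

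Cebpd fell from 21.6 ± 0.991 to 9.25 ± 0.578 TPM (SD, n = 3 each), a log2 fold change of -1.21 (± 0.11 SE, adjusted p = 5e-05 by limma). Onecut1 (HNF6, a homeodomain factor of liver and bile duct development) fell from 6.55 ± 0.441 to 2.63 ± 0.324 TPM, a log2 fold change of -1.29 (± 0.14 SE, adjusted p = 0.000103 by limma). Cebpe fell from 4.28 ± 0.545 to 1.86 ± 0.304 TPM, a log2 fold change of -1.17 (± 0.17 SE, adjusted p = 0.000444 by limma). Cebpa (chromosome 7, 35119293 to 35121928) had 113, 101 and 95.5 TPM in the Fgf18 f/f group, against 53.9, 52.2 and 49.0 TPM in the Fgf18△HSC group, with no overlap. Its log2 fold change of -0.99 (± 0.11 SE, adjusted p = 0.000101 by limma) lay just inside the limit of 1, so it was not called, although it passed in 4 of the 6 fits that left out a liver. The sum of the 2 listed of 8 hepatocyte markers, Cyp2e1 and Glul, was also lower. It was 597 to 831 TPM in Fgf18△HSC livers against 2012 to 2288 TPM in Fgf18 f/f livers. The other markers of the 8 were not listed, so these 2 do not stand for hepatocytes as a whole. Their part in the values of the factors was not tested. In whole liver, fewer cells of a type and less RNA per cell cannot be told apart.

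**Figure D2:**
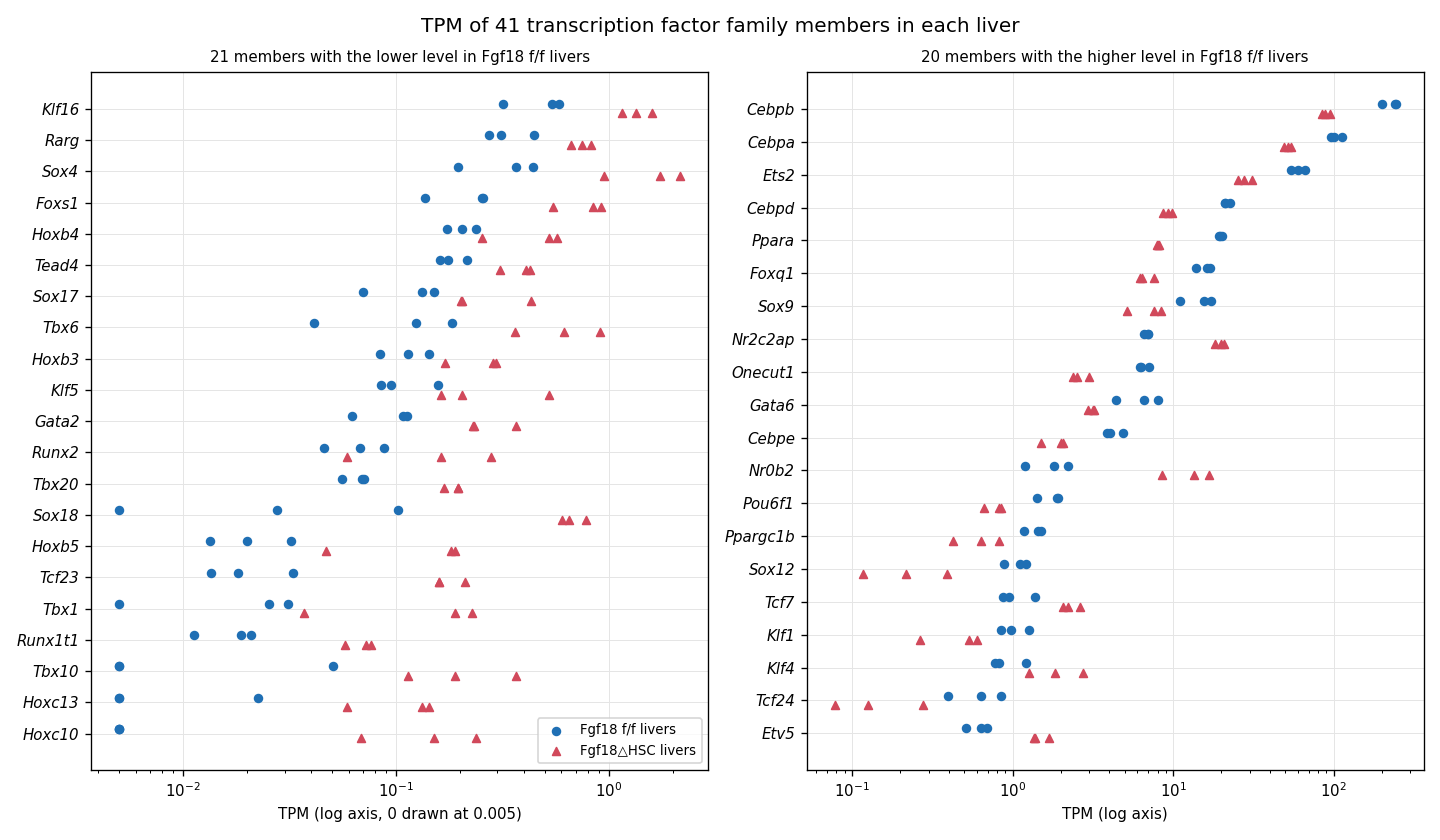
TPM of 41 of the 42 members in each of the 6 livers, on a log axis, with Fgf18 f/f livers as blue circles and Fgf18△HSC livers as red triangles, and with values of 0 drawn at 0.005. Members are ordered by their mean in Fgf18 f/f livers, and the groups overlap only in Runx2.

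Promoters are shown for the 4 members that carry the contrast above, Nr0b2, which rose, against Cebpb, Ppara and Onecut1, which fell together. The bases lie directly before the RefSeq start of each gene, on the plus strand of GRCm38.p6, at chr4:133553126-133553375 for Nr0b2, chr2:167688665-167688914 for Cebpb, chr15:85735647-85735775 for Ppara and chr9:74861671-74861920 for Onecut1. The window was 250 bases, and for Ppara the 129 bases nearest the start are printed. Capitals mark the E-box CACGTG, the TATA box TATAAA and the GC box GGGCGG, on either strand.
Nr0b2: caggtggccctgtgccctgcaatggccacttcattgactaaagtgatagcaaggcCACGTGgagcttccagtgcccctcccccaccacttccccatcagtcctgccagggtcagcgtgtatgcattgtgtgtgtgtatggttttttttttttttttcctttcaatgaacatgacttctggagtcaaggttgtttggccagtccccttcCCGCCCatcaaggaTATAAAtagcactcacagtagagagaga
Cebpb: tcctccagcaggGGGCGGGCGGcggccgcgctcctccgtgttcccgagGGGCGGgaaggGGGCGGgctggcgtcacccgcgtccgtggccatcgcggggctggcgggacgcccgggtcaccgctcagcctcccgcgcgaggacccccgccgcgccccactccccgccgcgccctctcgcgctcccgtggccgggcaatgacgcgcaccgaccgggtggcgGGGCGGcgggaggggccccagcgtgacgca
Ppara: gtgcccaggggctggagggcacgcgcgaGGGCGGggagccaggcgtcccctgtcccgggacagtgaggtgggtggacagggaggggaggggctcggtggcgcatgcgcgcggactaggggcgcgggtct
Onecut1: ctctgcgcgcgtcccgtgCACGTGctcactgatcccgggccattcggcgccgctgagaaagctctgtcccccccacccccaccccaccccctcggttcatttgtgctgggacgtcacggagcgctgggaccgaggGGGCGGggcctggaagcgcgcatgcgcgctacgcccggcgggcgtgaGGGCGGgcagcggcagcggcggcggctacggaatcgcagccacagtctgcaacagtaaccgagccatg
The Nr0b2 window held an E-box 195 to 190 bases before the start, a GC box 42 to 37 bases before it and a TATA box 28 to 23 bases before it. The Cebpb window held 5 GC boxes, of which 2 overlapped, and neither of the other motifs. The Ppara window held 2 GC boxes, at 216 to 211 and at 101 to 96 bases before the start, and the nearer one lies in the printed stretch. The farther one lies in the part left out because GENCODE marks untranslated sequence there. This window falls inside the bounds of Ppara given above, because GENCODE starts the gene before the RefSeq start used here. Onecut1 held an E-box 232 to 227 bases before its start and 2 GC boxes. RefSeq promoters of 23 of the 42 members were searched, and the others were not analysed here. The GC box was present in 16 of the 23 (69.6%), against 45.8% of 17492 protein-coding promoters, in 10 of the 15 members with higher values and 6 of the 8 with lower values. The E-box was present in 3 (13%, against 7.61%), the TATA box in 4 (17.4%, against 13.7%), the C/EBP motif TTGCNNAA in 4 (17.4%, against 10.5%), the CCAAT box in 5 (21.7%, against 39.5%) and the cyclic AMP response element TGACGTCA in 0 (against 2.2%). A match of letters in these windows describes the sequence and does not show binding.

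The forkhead and ETS families each had 1 member that fell and 1 that rose, and in both the abundant member fell. Foxq1, a forkhead factor, fell from 15.7 ± 1.57 to 6.76 ± 0.776 TPM (SD, n = 3 each), a log2 fold change of -1.21 (± 0.14 SE, adjusted p = 0.000116 by limma). Foxs1, known from pericytes and other perivascular cells, rose from 0.216 ± 0.0683 to 0.772 ± 0.196 TPM, a log2 fold change of 1.46 (± 0.27 SE, adjusted p = 0.00125 by limma), where Fgf18 f/f livers had 4 to 9 reads each. Ets2, an effector of growth factor and MAP kinase signalling, had 65.9, 60.3 and 54.4 TPM in the Fgf18 f/f group, against 31.1, 25.2 and 27.5 TPM in the Fgf18△HSC group. Its groups were well separated, and it fell with a log2 fold change of -1.11 (± 0.12 SE, adjusted p = 0.000118 by limma). Etv5, a target of FGF signalling in many tissues, had 0.692, 0.634 and 0.514 TPM in the Fgf18 f/f group, against 1.69, 1.37 and 1.37 TPM in the Fgf18△HSC group. It rose with a log2 fold change of 1.15 (± 0.19 SE, adjusted p = 0.000774 by limma).

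The Sox factors, HMG-box proteins that set cell fate, divided into 2 members that fell and 2 that rose. Sox9 (chromosome 11, 112782224 to 112787760), a factor of bile duct cells, was the most abundant of them and had 17.2, 15.5 and 11.01 TPM in the Fgf18 f/f group, against 8.37, 5.18 and 7.57 TPM in the Fgf18△HSC group. The groups did not overlap, and its mean fell from 14.6 ± 3.2 to 7.04 ± 1.66 TPM (SD, n = 3 each), a log2 fold change of -1.04 (± 0.23 SE, adjusted p = 0.00269 by limma). The call was lost in 3 of the 6 fits that left out a liver, with log2 fold changes of -0.91 and -0.99 without Fgf18 f/f replicate 1 or 2 and -0.84 without Fgf18△HSC replicate 2. The 4 listed of 5 other bile duct markers had higher mean values in Fgf18△HSC livers. Spp1 and Epcam rose, Cftr, whose groups overlapped, and Krt7 did not pass the threshold, and their sum, most of which was Spp1, went from 12.7 to 17.1 TPM in Fgf18 f/f livers to 45.0 to 69.2 TPM in Fgf18△HSC livers.

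Sox12, of the same subgroup as Sox4, had 1.21, 1.12 and 0.885 TPM in the Fgf18 f/f group, against 0.390, 0.118 and 0.216 TPM in the Fgf18△HSC group. It fell with a log2 fold change of -1.85 (± 0.31 SE, adjusted p = 0.000825 by limma), the largest fall among the members on this scale. Sox4, which is widely expressed in progenitor cells, had 0.366, 0.197 and 0.440 TPM in the Fgf18 f/f group, against 1.75, 0.956 and 2.17 TPM in the Fgf18△HSC group. It rose with a log2 fold change of 1.96 (± 0.34 SE, adjusted p = 0.00097 by limma).

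Sox18, a factor of blood and lymph vessel endothelium, had 0, 0.0277 and 0.103 TPM in the Fgf18 f/f group, which is 0, 1 and 3 reads, against 0.655, 0.606 and 0.780 TPM in the Fgf18△HSC group. It rose with a log2 fold change of 2.5 (± 0.28 SE, adjusted p = 0.000124 by limma). The related endothelial factor Sox17 had 0.118 ± 0.0425 and 0.281 ± 0.133 TPM (SD, n = 3 each) and did not pass the threshold at 0.77. All 3 vascular endothelial markers, Pecam1, Cdh5 and Vwf, were higher in each Fgf18△HSC liver, and their sum was 7.85 to 8.70 TPM in Fgf18 f/f livers and 19.0 to 24.7 TPM in Fgf18△HSC livers. Their part in the values of Sox17 and Sox18 was not tested.

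The Krüppel-like zinc finger factors held 1 member that rose, 1 that fell and 2 that did not pass. Klf16 rose from 0.482 ± 0.143 to 1.37 ± 0.227 TPM (SD, n = 3 each), a log2 fold change of 1.36 (± 0.25 SE, adjusted p = 0.00118 by limma). Klf1, the erythroid member, fell from 1.03 ± 0.215 to 0.466 ± 0.178 TPM, a log2 fold change of -1.04 (± 0.29 SE, adjusted p = 0.00878 by limma). Without Fgf18△HSC replicate 3 or Fgf18 f/f replicate 3 its log2 fold change was -0.75 or -0.89 and it was not called. The 2 listed of 4 red cell markers, Hbb-bs and Hba-a1, rose, from a sum of 56.2 to 94.3 TPM to a sum of 327 to 432 TPM. Klf4, a factor of endothelial and epithelial cells and macrophages, had 1.21, 0.824 and 0.783 TPM in the Fgf18 f/f group, against 1.85, 1.27 and 2.74 TPM in the Fgf18△HSC group. The lowest Fgf18△HSC liver was barely above the highest Fgf18 f/f liver, and the log2 fold change of 0.94 (± 0.29 SE, adjusted p = 0.0137 by limma) was not called. After rescaling of the livers, the log2 fold change of Klf4 was -0.02. Klf5 did not pass the threshold, at 0.81.

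The GATA, T-box, POU and Runt genes had 9 members, of which 2 rose, 1 fell and 6 did not pass. Gata6, a zinc finger factor of endoderm and mesoderm, was the most abundant, at 8.01, 6.56 and 4.42 TPM in the Fgf18 f/f group, against 3.23, 2.97 and 3.15 TPM in the Fgf18△HSC group. The spread was wide in the Fgf18 f/f livers, and the log2 fold change of -0.96 (± 0.21 SE, adjusted p = 0.00296 by limma) was inside the limit of 1. Pou6f1, a POU factor known from the nervous system, fell from 1.74 ± 0.273 to 0.777 ± 0.0983 TPM (SD, n = 3 each), a log2 fold change of -1.06 (± 0.19 SE, adjusted p = 0.00113 by limma). That call was lost without Fgf18 f/f replicate 1 (-0.99) or without Fgf18△HSC replicate 2 (-0.97).

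The mesoderm factor Tbx6 rose from 0.117 ± 0.0719 to 0.629 ± 0.273 TPM (SD, n = 3 each), a log2 fold change of 1.74 (± 0.36 SE, adjusted p = 0.00219 by limma), on 2, 5 and 6 reads in the Fgf18 f/f livers. Tbx10 also rose, with a log2 fold change of 1.42 (± 0.31 SE, adjusted p = 0.00279 by limma), but on 2 reads over the Fgf18 f/f livers and 21 over the Fgf18△HSC livers, a ratio of 12.6 per depth with an exact 95% counting interval of 3.08 to 111. The other members were low and not called: Tbx1 and Tbx20 (both known from heart development), Gata2, Runx2 and Runx1t1 had log2 fold changes of 0.99, 0.80, 0.95, 0.60 and 0.53. Gata2, a factor of blood precursors and endothelium, and the corepressor Runx1t1 each had higher values in every Fgf18△HSC liver. Runx2, the bone factor, overlapped between the groups, with 0.0676, 0.0457 and 0.0880 TPM in the Fgf18 f/f group, against 0.164, 0.0593 and 0.28 TPM in the Fgf18△HSC group (limma adjusted p = 0.0898).

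The Hox genes, which encode position along the body axis in the embryo, were all higher in mean value in Fgf18△HSC livers, and 1 of the 5 rose. All had a mean below 1 TPM, where 89% of the listed protein-coding genes had higher values and 50.5% passed the threshold. Hoxc10 had 0 reads in each Fgf18 f/f liver and 6, 2 and 9 reads in the Fgf18△HSC livers. Set against 3 reads over the Fgf18 f/f group, the ratio per depth was 6.81. That ratio leaves out the counting error of the Fgf18△HSC reads, so it is not a strict lower limit. The fit gave an adjusted p of 0.0016 by limma, and the annotated bounds of the gene overlap those of Hoxc5. Hoxc13 had 1 read in the Fgf18 f/f livers and 15 in the Fgf18△HSC livers, a ratio of 18.0 with an exact 95% counting interval of 2.77 to 759, and was not called. Hoxb3, Hoxb4 and Hoxb5, neighbours on chromosome 11, had log2 fold changes of 0.70, 0.80 and 0.91 and were not called. In Hoxb4 the values were 0.204, 0.175 and 0.238 TPM in the Fgf18 f/f group, against 0.526, 0.255 and 0.571 TPM in the Fgf18△HSC group, so that replicate 2 of the latter lay next to the Fgf18 f/f livers. Hoxb5 and Hoxb3 had the same liver lowest in the Fgf18△HSC group.

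The Tcf and Tead genes had 2 members that rose, 1 that fell and 1 that did not pass. Tcf7, the HMG-box factor of Wnt signalling and of T cells, rose from 1.07 ± 0.274 to 2.30 ± 0.297 TPM (SD, n = 3 each), a log2 fold change of 1.06 (± 0.21 SE, adjusted p = 0.00167 by limma). It was not called without Fgf18 f/f replicate 2 (0.999) or 3 (0.93), or without Fgf18△HSC replicate 3 (0.96). Tcf23 and Tcf24 share the name but are basic helix-loop-helix proteins. Tcf23 rose with a log2 fold change of 1.18 (± 0.17 SE, adjusted p = 0.000356 by limma), from 2, 3 and 1 reads to 18, 10 and 13 reads. Tcf24 fell from 0.626 ± 0.225 to 0.161 ± 0.104 TPM, a log2 fold change of -1.50 (± 0.35 SE, adjusted p = 0.00372 by limma). Tead4, a DNA-binding partner of YAP, did not pass the threshold at 0.75.

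**Figure D3:**
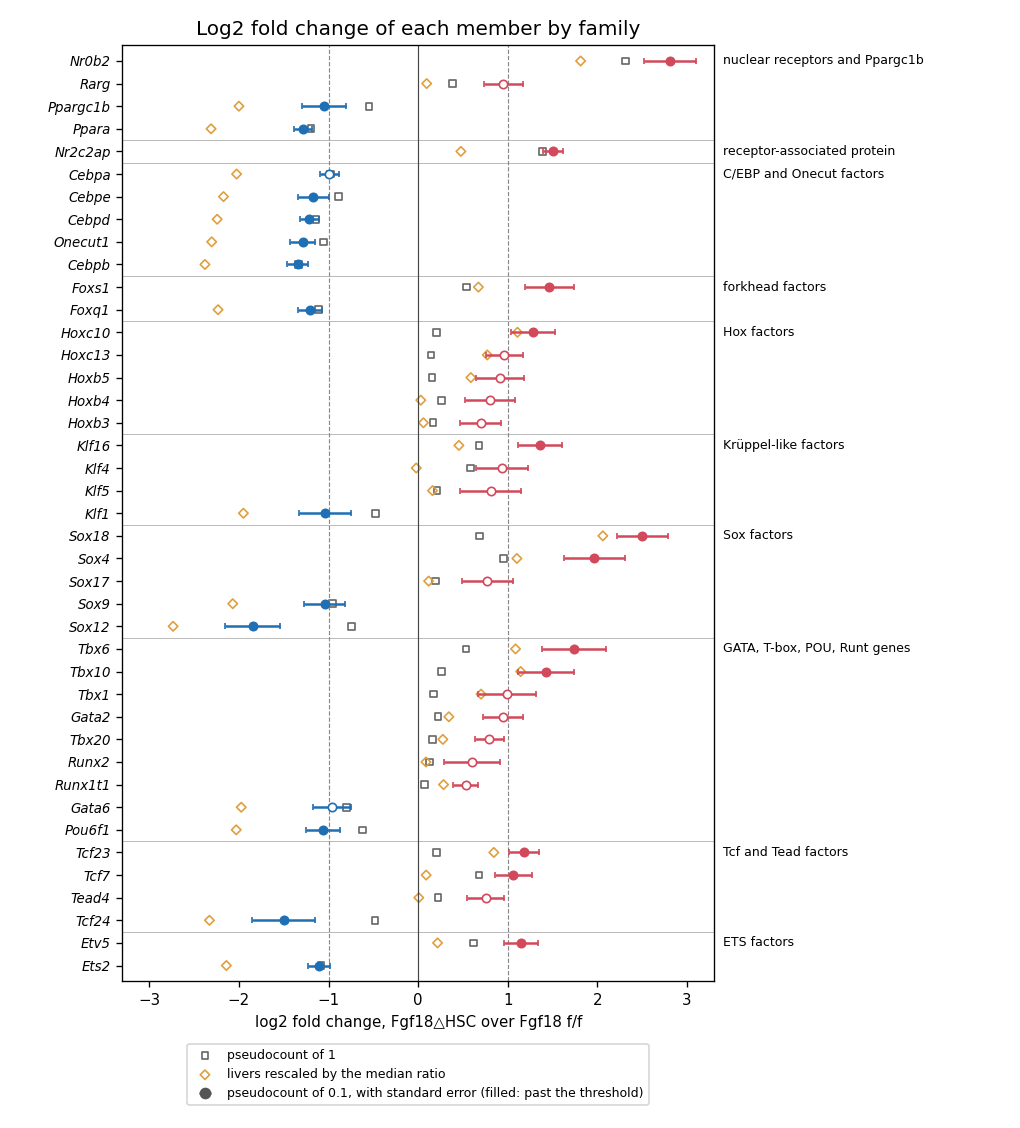
Log2 fold change, Fgf18△HSC over Fgf18 f/f, of 41 of the 42 members by family, as points with standard errors, filled where the threshold was passed. Grey squares use a pseudocount of 1 and orange diamonds use livers rescaled by their median ratio, which shifted the members by a median of -0.87. All 5 C/EBP and Onecut factors lie below 0 under each of these settings, and Klf4 is the only one of them all whose sign turns, to -0.02 after rescaling.

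The livers of each group were alike over the members. Across the 42 members, the correlation of log2(TPM + 0.1) was 0.992 to 0.994 between Fgf18 f/f livers and 0.976 to 0.986 between Fgf18△HSC livers. Between livers of different groups it was 0.898 to 0.929. These values are a description over genes that share libraries. The genes were also selected to differ between the groups, so a lower correlation between groups was built in. One liver decided part of the count of rises. Fgf18△HSC replicate 2 had the lowest value of its group in 19 of the 26 members with higher values (73.1%), beside 43.8% of the 1614 listed protein-coding genes with higher values. Without it 19 members rose and 12 fell, in place of 12 and 14. Of all listed genes 71.4% were called without it. The higher side held 61.3% of the calls among members and 60.3% of those among all listed genes. Gata2, Hoxb4, Hoxb5, Klf4, Klf5, Rarg and Tbx1 were then called higher and Cebpa lower, and Sox9, Pou6f1 and Ppargc1b were not called.

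HSCs are the cells in which Fgf18 was deleted, and several of the rarer members are known from non-parenchymal cells. Of 10 HSC markers 7 were listed, each with higher values in Fgf18△HSC livers, and Acta2, Rgs5, Ngfr, Des and Hgf rose. Their sum was 2.73 to 3.87 TPM in Fgf18 f/f livers and 7.87 to 12.1 TPM in Fgf18△HSC livers. The median level of these 7 was 0.497 TPM. Of the listed protein-coding genes below 1 TPM, 89% had higher values, and in 94.4% the groups did not overlap. The counts of all marker lists stand beside 71.7% of all listed genes that passed the threshold and 65.1% that had higher values. The 2 listed of 7 sinusoidal endothelial markers, Lyve1 and Gpr182, rose, as did Cd68, 1 of the 2 listed of 6 macrophage markers, 1 of 7 neutrophil markers (Cxcr2) and 1 of 4 B cell markers (Ighm), while 2 of 3 mesothelial markers (Msln and Upk3b) fell and markers of T and NK cells were not analysed here. No listed marker was at 0 in any liver, and their part in the members' values was not tested.

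Target genes and partners of the factors were counted in the same fit. The counts of all lists stand beside 71.7% of all listed genes that passed the threshold. At or above 1 TPM, 91.5% of the listed protein-coding genes passed and 39.5% had higher values, while below it 89% had higher values. The median level was 106 TPM in the CAR and PXR list and 1.6 TPM in the ATF4 list. Of 30 PPARα target genes 10 were listed, and 8 fell while 1 rose. Acaa1b, a peroxisomal thiolase, fell from 226 ± 19.5 to 101 ± 4.38 TPM (SD, n = 3 each), a log2 fold change of -1.16 (± 0.11 SE, adjusted p = 5.59e-05 by limma). The exception was Plin2, a coat protein of lipid droplets, which rose from 152 ± 11.9 to 323 ± 58.3 TPM, a log2 fold change of 1.08 (± 0.15 SE, adjusted p = 0.000308 by limma). Its call was lost with livers rescaled by their median ratio (log2 fold change 0.043, adjusted p = 0.884 by limma) and without Fgf18△HSC replicate 2 (0.94).

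Of 15 genes repressed or induced through FXR and SHP, 5 were listed and all 5 fell. The list mixes both kinds of gene, so a shared direction in it has no single reading. With a pseudocount of 1 or 0.01, with only genes averaging 1 TPM or more, or without a mean-variance trend, 4 fell. The count was also 4 without Fgf18 f/f replicate 1 or 2 or Fgf18△HSC replicate 3. Slc10a1, the bile acid importer of hepatocytes, fell from 403 ± 12.4 to 144 ± 11.9 TPM (SD, n = 3 each), a log2 fold change of -1.49, and Slc27a5, which couples bile acids to coenzyme A, had a log2 fold change of -1.10. Cyp7a1, the rate-limiting enzyme of bile acid synthesis and a gene that SHP represses, had 13.0, 11.2 and 20.1 TPM in the Fgf18 f/f group, against 5.74, 4.09 and 5.96 TPM in the Fgf18△HSC group. It fell with a log2 fold change of -1.44 (± 0.24 SE, adjusted p = 0.000735 by limma), and it is named after its values were seen. Slc51b and Fetub, named so that the listed genes are complete, had log2 fold changes of -1.29 (adjusted p = 0.0427 by limma) and -1.03. Whether SHP had a part in any of these values was not tested. Of 31 target genes of the xenobiotic receptors CAR and PXR, 14 were listed and all 14 fell, among them Gstm1, from 3112 ± 129 to 597 ± 25.2 TPM, and Cyp3a11, from 757 ± 98.1 to 273 ± 42.5 TPM. Gstm1, Cyp3a11 and Acaa1b have close copies in the genome, between which reads can be split, so their levels are uncertain. These lists hold genes of hepatocytes, of whose 8 markers the 2 listed, Cyp2e1 and Glul, were lower too. Of 11 LXR target genes 1 was listed, the cholesterol exporter Abcg1, which rose with a log2 fold change of 1.13. The call was lost with rescaled livers (log2 fold change 0.19, adjusted p = 0.502 by limma) and with a pseudocount of 1 (0.66). Of 20 nuclear receptor coregulators 2 were listed, Ppargc1b and the corepressor Nrip1. Both fell, and neither was called with a pseudocount of 1, where Nrip1 had a log2 fold change of -0.96.

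Of 20 target genes of the stress factor ATF4, 8 were listed, and 6 rose while none fell past the threshold. With rescaled livers 0 rose and 1 fell, and with a pseudocount of 1 none of the 8 was called. Sesn2, a leucine sensor, rose from 1.81 ± 0.395 to 4.32 ± 0.227 TPM (SD, n = 3 each), a log2 fold change of 1.23, and the pseudokinase Trib3 rose with a log2 fold change of 1.17. With rescaled livers their log2 fold changes were 0.23 and 0.18 (adjusted p = 0.431 and 0.532 by limma), and with a pseudocount of 1 they were 0.93 and 0.87. The exception in direction was Chac1, which degrades glutathione and is named after its values were seen. It had 17.9 ± 3.94 TPM in the Fgf18 f/f group and 9.05 ± 1.5 TPM in the Fgf18△HSC group, with no overlap, and a log2 fold change of -0.96 (± 0.19 SE, adjusted p = 0.00171 by limma), which was not called. Among 58 other signal-driven transcription factors (AP-1, EGR, NF-κB, STAT, IRF and related genes), 19 were listed, of which 5 rose and 10 fell. With rescaled livers 1 rose and 12 fell, and with a pseudocount of 1 these counts were 2 and 7. The AP-1 genes were divided: Fosl1 rose from 2.54 ± 0.0652 to 13.4 ± 2.69 TPM (log2 fold change 2.34) and Jun from 114 ± 20.1 to 250 ± 72.5 TPM (log2 fold change 1.10), while Jund fell from 290 ± 45.1 to 142 ± 15.4 TPM (log2 fold change -1.02). The call of Jun was lost with rescaled livers (log2 fold change 0.063, adjusted p = 0.828 by limma) and without Fgf18△HSC replicate 1 (0.97) or 3 (0.95). That of Jund was lost without Fgf18 f/f replicate 1 (-0.91) or Fgf18△HSC replicate 2 (-0.93). Bhlhe40, a repressor of the circadian system, fell with a log2 fold change of -1.16.

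**Figure D4:**
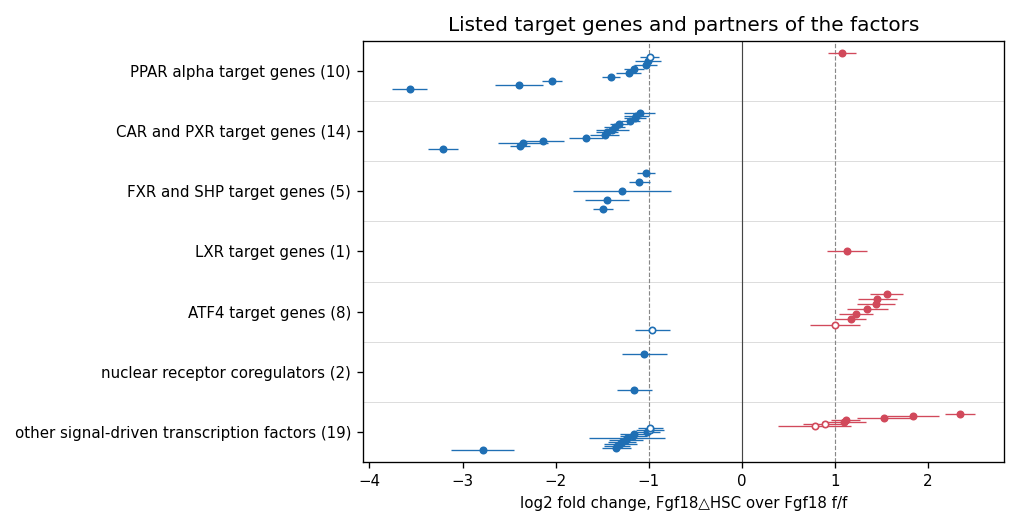
Log2 fold change, Fgf18△HSC over Fgf18 f/f, with its standard error, of each listed gene of 7 lists of target genes and partners, with the number listed in brackets. Filled points passed the threshold, and all 14 CAR and PXR target genes lie on the lower side while 7 of 8 ATF4 target genes lie on the higher side. These 2 lists differ in level, with medians of 106 and 1.6 TPM, and direction differed with level among all listed protein-coding genes.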

How the data were processed

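Whole-liver RNA of 3 Fgf18 f/f and 3 Fgf18△HSC mice was profiled. The authors prepared stranded mRNA libraries, and the submitters' processing notes name cutadapt 2.5, HISAT2 2.1.0 and featureCounts 1.6.3 on mm10 (GRCm38). The replicates are separate animals according to the paper, and p-values measure the spread between these livers. The authors counted reads per gene and deposited 1 table of 3201 genes with a value per liver, taken as TPM because its unit is not written and value times joined exon length (GENCODE vM21) gave whole reads, within 0.02, for 92.2 to 93.1% of values under 5000 reads. In 37 of the 42 members this held in every liver. The total reads of each library are unknown, and counting intervals cover counting error only. The authors also deposited a log2 fold change, a p-value and an adjusted p-value per gene, which come from the authors' DESeq2 comparison and were not used. The table had been filtered on that comparison, at an absolute log2 fold change of at least 1 and an unadjusted p under 0.05.

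The groups were compared with limma 3.58.1 in R 4.3.3 (lmFit, then eBayes with the trend option) on log2(TPM + 0.1), without a filter or block, with Benjamini-Hochberg adjustment over the 3201 genes. These genes were selected on the same contrast, so the adjusted p-values do not hold as false discovery rates. The fit was tested on simulated data. Tables were made in Python 3.11.15 with pandas 2.3.3 and scipy 1.17.1. Promoters came from RefSeq (GRCm38.p6), and stretches that GENCODE marks as untranslated were left out. Full statistics were given to up to 3 members per family group with the highest level and the 2 with the largest change past the threshold, and in the related lists to up to 2 genes per direction with the highest level among those past it. Values of other members are given for completeness. The values of 1 member and of 1 PPARα target gene are not reported here, and both stay in the counts. The members, lists and tests were chosen with earlier results of these data known. Alternatives were pseudocounts of 1 and 0.01, only genes averaging 1 TPM or more, livers rescaled by their median ratio to the mean over listed genes, no trend, a replicate block, each liver left out, and limma-voom on recovered reads, which was added after the data were seen.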

Additional observations from a re-analysis of the deposited data

How the results depend on the processing

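The count of members that rose (12) depended on the treatment of low values, and the count that fell (14) less so. With a pseudocount of 1, 2 rose and 7 fell, with a median log2 fold change of 0.16. With a pseudocount of 0.01, 25 rose and 14 fell, with a median of 1.09. Among the 18 members with a mean of at least 1 TPM, 4 rose and 11 fell, and the median was -1.06 because mostly lower members were left. With livers rescaled by their median ratio, 6 rose and 16 fell, with a median of 0.088. This moved the log2 fold change of all listed genes by a median of -0.88. The ratio rests on genes selected on this contrast, so calls lost or kept under it do not test the scale of the libraries. Foxs1, Tcf23, Klf16, Nr2c2ap, Tcf7 and Etv5 were then not called, Cebpa (-2.03) and Gata6 (-1.97) were called lower, and Klf4 turned to -0.022. The share of calls on the higher side was 46.2% as reported, 27.3% after rescaling, 22.2% with a pseudocount of 1 and 64.1% with one of 0.01, beside 58.1%, 20.1%, 32% and 65.6% over all listed genes. Of all listed genes, 71.7% were called as reported and 43.6% after rescaling. With a pseudocount of 1 or 0.01 it was 26% or 95.1% of them. Limma-voom on reads recovered for 37 members gave 23 that rose and 12 that fell, with a median of 1.17. Over all listed genes in that fit, 96.9% were called and the median was 1.29. Leaving out each liver in turn gave 12 to 19 that rose, 12 to 15 that fell and medians from 0.62 to 0.89, and the upper end came without Fgf18△HSC replicate 2. In these fits 66.2 to 72.8% of all listed genes were called. Without a mean-variance trend the counts were 12 and 14.

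The labels number the replicates 1 to 3 in each group, and these are different animals. Same-numbered livers deviated together by a correlation across genes of 0.06, 0.01 and 0.03, so the numbers were not taken as pairs, and with the replicate block 12 members rose and 14 fell, with a median of 0.78. The 2 members Hoxc10 and Hoxc13 had under 10 reads in every liver.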

Other observations

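The pattern of names also took in 2 listed antisense RNAs, which are no members because they do not code for protein. Hnf4aos, on the strand opposite the gene of the hepatocyte nuclear receptor HNF4α, had 3.48, 4.52 and 3.55 TPM in the Fgf18 f/f group, against 1.97, 1.44 and 1.32 TPM in the Fgf18△HSC group. It fell with a log2 fold change of -1.24 (± 0.19 SE, adjusted p = 0.000545 by limma). Tbx3os1, opposite the T-box gene Tbx3, fell from 0.896 ± 0.141 to 0.377 ± 0.183 TPM (SD, n = 3 each), a log2 fold change of -1.14 (± 0.33 SE, adjusted p = 0.0105 by limma). The genes on their other strands were not analysed here, and without the strand setting of the counting their reads cannot be told apart.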
